A study of Mus musculus with 12 samples.

Results

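Donor CD4+ T cells lacking STAT3 and PD-1 were compared with WT donor CD4+ T cells, both sorted from the liver of allogeneic recipients on day 6 after hematopoietic cell transplantation (HCT). The comparison rests on 4 of the 12 libraries of the series, chosen by their labels as liver CD4+ T cells of WT or STAT3-/-PD-1-/- donors, 2 of each genotype. It was read across all 11959 genes that were abundant enough to test, of 25078 genes listed. In this experiment, T cells from C57BL/6 donors were transplanted with T cell-depleted bone marrow of WT donors into irradiated BALB/c recipients. The WT donors carried neither allele. The STAT3-/-PD-1-/- donors were Stat3 fl/fl PD-1-/- CD4-Cre mice, in which the Cre deletes Stat3 in T cells and the PD-1 deletion is present in every cell. STAT3-/- donors, which are Stat3 fl/fl CD4-Cre mice, supplied 2 further CD4+ libraries. Their values stand beside the comparison. No group lacked PD-1 alone, so the loss of PD-1 with STAT3 present was not measured. WT mice were purchased, whereas the STAT3-/-PD-1-/- mice were bred from crossed lines and also carried the Cre. A difference from WT is therefore that of both deletions together with the Cre and the breeding. The part of the deletions alone was not tested. The age of the mice was not given in the sources used here. Each library combined the cells of 3 recipients, so the replicates are pools, and the spread between single mice was not measured.

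STAT3 is a transcription factor that relays signals from IL-6, IL-21, IL-23, and related cytokines, and it is required for the Th17 program and for part of the T follicular helper program. PD-1, encoded by Pdcd1, is an inhibitory receptor of activated T cells that dampens signaling from the T cell receptor and CD28 after binding PD-L1. In acute graft-versus-host disease (GVHD), donor T cells that recognize host antigens expand and enter the liver, gut, and skin, where parenchymal cells carry PD-L1.

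The 4 libraries held 22938050 and 23640160 counts on genes in WT and 22536488 and 24016266 in STAT3-/-PD-1-/- T cells. Levels are given as CPM normalized by TMM, in the order of replicate 1 and replicate 2. A gene was called changed at an adjusted p under 0.05 (edgeR, quasi-likelihood test, Benjamini-Hochberg), and only such genes are said to have risen or fallen. Changes are log2 fold changes of STAT3-/-PD-1-/- over WT ± SE. The replicates of a group differed by more than counting noise, with a chi-square per degree of freedom of 69 in WT and 41.9 in STAT3-/-PD-1-/- T cells. Replicate 1 of STAT3-/-PD-1-/- stood apart in 1 respect, since the ribosomal RNA precursor Rn45s took 1.91% of its counts and 0.72% to 0.768% of the counts of the other 3 libraries. Several immediate early genes were higher in replicate 1 than in replicate 2 of every CD4+ group. Fosb, for example, was at 463 and 102 CPM in WT, 445 and 92.7 in STAT3-/-, and 107 and 35.3 in STAT3-/-PD-1-/- T cells.

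The sorted cells carried the markers of CD4+ T cells. Cd3e, a subunit of the T cell receptor complex, was at 524 and 674 CPM in WT and 609 and 593 in STAT3-/-PD-1-/- libraries. Cd4 itself was at 1811 and 1875 CPM in WT and 1322 and 1256 in STAT3-/-PD-1-/- T cells, a log2 fold change of -0.52 ± 0.13 (SE; adjusted p = 0.0375). Zbtb7b, a factor of the CD4 lineage, was at 163 and 207 CPM in WT, 192 and 258 in STAT3-/-, and 150 and 77.4 in STAT3-/-PD-1-/- T cells. It was not called (adjusted p = 0.186). Of the 18 genes tested in a list of the T cell receptor complex, proximal signaling, and CD4 lineage, 3 fell (Cd4, Cd2, and Lcp2) and none rose. The log2 fold change was below 0 for 16 of them, Cd3e not included, and the median was -0.38. The summed level of this list was 15800 and 14800 CPM in WT and 12400 and 11900 in STAT3-/-PD-1-/- T cells, led by Ptprc, the phosphatase CD45. Without replicate 1 or replicate 2 of either group, 0 of its members were called, scaling by totals alone lost the calls of Cd4 and Cd2, and with the replicate number as a block 10 were called lower.

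Markers of other cells were few. The 2 markers of CD8+ T cells summed to 13.4 and 10.8 CPM in WT and 15.2 and 25.3 in STAT3-/-PD-1-/- T cells, led by Cd8b1. Cd8a was low but stood apart in 1 library, with 11 and 19 counts in WT, 9 and 44 in STAT3-/-, and 26 and 142 in STAT3-/-PD-1-/- libraries. That library also had the lowest Zbtb7b of any CD4+ library, and whether CD8+ T cells were among its cells was not tested. Markers of Kupffer cells and macrophages summed to 9.52 and 21.7 CPM in WT and 9.85 and 12.3 in STAT3-/-PD-1-/- T cells, led by Cd68, and none of the 10 tested was called by edgeR (1 at an unadjusted p under 0.05) or by DESeq2. The other markers tested were low, with more counts in replicate 2 than in replicate 1 of both WT and STAT3-/-. Marco had 4 and 22 counts in WT, 1 and 29 in STAT3-/-, and 4 and 2 in STAT3-/-PD-1-/- libraries. Clec4f, a receptor of Kupffer cells, had 2 and 39 counts in WT, 4 and 25 in STAT3-/-, and 1 and 6 in STAT3-/-PD-1-/- libraries. C1qa, a complement subunit made by macrophages, had 7 and 42 counts in WT, 7 and 23 in STAT3-/-, and 6 and 1 in STAT3-/-PD-1-/- libraries, and Timd4 had at most 1 count in any. Of the 10 tested, 9 had a log2 fold change below 0, with a median of -2.19. That median rested on replicate 2 of WT. As log2 CPM minus the WT mean, the list median was -1.38 and 1.38 in WT and -0.88 and 1.00 in STAT3-/-. It was -1.27 and -0.74 in STAT3-/-PD-1-/- libraries, so replicate 1 of WT was not above them. Counts without replicate 2 of WT are given with the gene lists below, but not for these markers. The 16 hepatocyte markers summed to 2.14 and 4.22 CPM in WT and 2.46 and 5.5 in STAT3-/-PD-1-/- T cells. Alb, the serum albumin gene, had 12 counts or fewer in each CD4+ library. Markers of B cells, neutrophils, and erythroid cells summed to at most 2.5 CPM in any CD4+ library. The 5 NK cell markers summed to 11.5 and 11.3 CPM in WT and 18.7 and 10.4 in STAT3-/-PD-1-/- T cells, led by Klrb1c, which T cells can also express. The 7 endothelial markers summed to 178 and 185 CPM in WT and 167 and 170 in STAT3-/-PD-1-/- T cells, nearly all from Pecam1, which T cells also express.

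Both targeted genes were lower in the cells that carry the deletions. Stat3 (chr11:100886806-100939540, minus strand, mm10) was at 362 and 466 CPM in WT, 138 and 164 in STAT3-/-, and 157 and 222 in STAT3-/-PD-1-/- T cells. The WT and STAT3-/-PD-1-/- libraries did not overlap, and Stat3 fell (-1.13 ± 0.22, SE; adjusted p = 0.018). This call was lost without replicate 1 or replicate 2 of STAT3-/-PD-1-/- or without replicate 2 of WT, with log2 fold changes of -0.90, -1.40, and -0.95. Counts on Stat3 cover the whole gene, and a floxed allele removes only some of its exons, so reads from the remaining exons still count. Pdcd1 (chr1:94038305-94052553, minus strand) was at 242 and 235 CPM in WT, 257 and 323 in STAT3-/-, and 55.1 and 26.3 in STAT3-/-PD-1-/- T cells. Its change of -2.55 ± 0.33 (SE; adjusted p = 0.00566) passed the threshold in all 13 alternative settings and reached -3.18 without replicate 1 of STAT3-/-PD-1-/-. Both genes thus followed the labels.

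Of the 11959 genes tested, 1538 were called (12.9%), with 862 higher (7.21%) and 676 lower (5.65%) in STAT3-/-PD-1-/- than in WT T cells. The 2 groups did not overlap in any of the called genes, as was so for 59% of all genes tested (31% higher, 28% lower). The changes were often large: 901 called genes moved at least 1 on the log2 scale, 161 rose by at least 2, and 144 fell by at least 2. The median over all genes was -0.01. The number of calls rested on having both libraries of a group. It was 147 and 62 without replicate 1 and replicate 2 of STAT3-/-PD-1-/-, and 676 and 575 without those of WT, and no called gene changed sign in any of these fits. Same-numbered libraries of the groups deviated together, and with the replicate number as a block 3104 genes were called, 1646 higher and 1458 lower. This fit is named the replicate block and given below where it changed a call or moved a count by over 1.5 times. Scaling by totals alone moved the split from 862 higher and 676 lower to 1023 and 574. Each library is a bulk of sorted cells, so fewer cells that express a gene and less RNA per cell cannot be told apart.

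**Figure D1:**
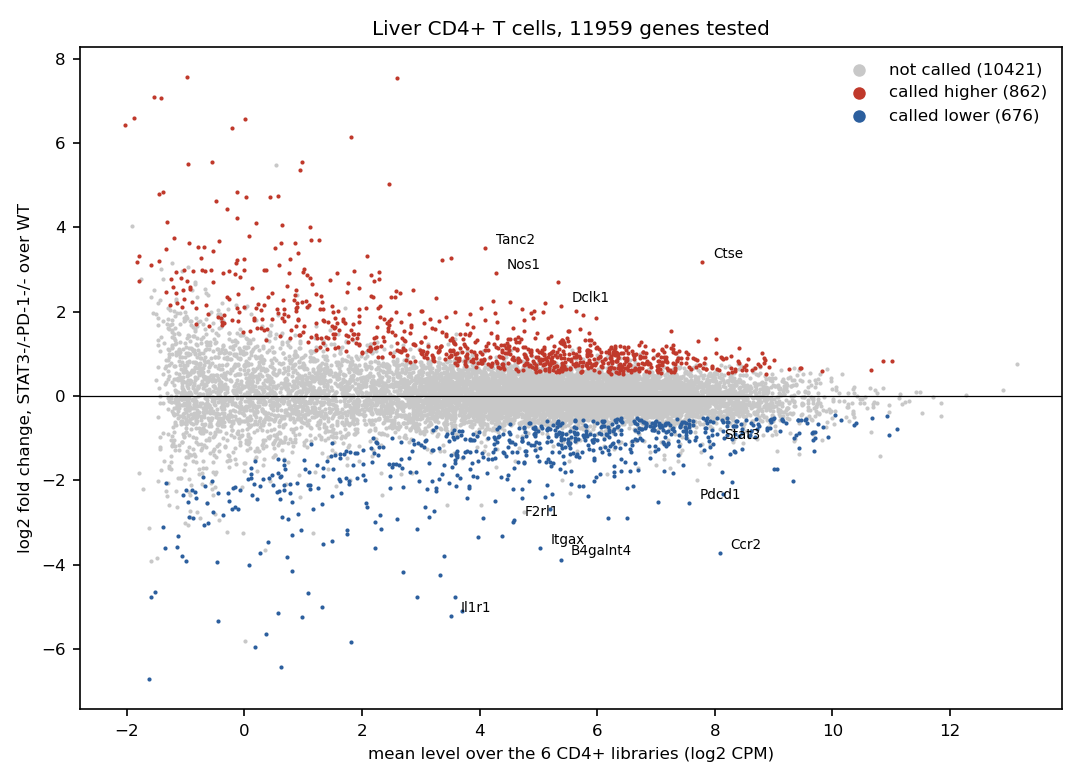
Log2 fold change of STAT3-/-PD-1-/- over WT liver CD4+ T cells (y axis) against the mean level over the 6 CD4+ libraries (log2 CPM, x axis) for the 11959 genes tested, 1 point per gene. The 862 genes called higher and the 676 called lower lie on both sides of 0 at every level, and Ctse and Ccr2 are among the most abundant genes with large changes.

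Genes that lie near a targeted allele were counted apart, because an allele carries its neighbors with it when it is crossed. Within 5 Mb of Pdcd1, 41 genes were tested, and 7 rose and 2 fell (22%). Ano7, a membrane protein of the anoctamin family, was at 0.0447 and 0.0844 CPM in WT, 0 and 0.0445 in STAT3-/-, and 1.47 and 2.01 in STAT3-/-PD-1-/- T cells. Rbm44, an RNA-binding protein, was at 1.38 and 2.20 CPM in WT, 3.15 and 4.63 in STAT3-/-, and 0.0432 and 0.0402 in STAT3-/-PD-1-/- T cells. Their log2 fold changes were 4.63 and -5.26. Within 5 Mb of Stat3, 153 genes were tested, and 13 rose and 7 fell (13.1%), near the 12.9% of all genes. Tanc2, Itgb3, and Cdc6 are among them. Without replicate 1 or replicate 2 of STAT3-/-PD-1-/-, 0 genes were called near Pdcd1 and 1 near Stat3, and without replicate 1 or replicate 2 of WT 3 or 4 and 12 were called. With the replicate block, 46 were called near Stat3. Whether sequence that came with the alleles had a part in any of these values was not tested.

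The 12 largest rises among called genes whose mean log2 CPM was 3 or more were in genes with few shared roles. Serpine2 (chr1:79794321-79858665), Lad1 (chr1:135818598-135833341), and Ctse (chr1:131638314-131675507) lie on the chromosome of Pdcd1, outside the 5 Mb window. Whether sequence linked to the Pdcd1 allele had a part in their values was not tested. The aspartic protease Ctse, cathepsin E, was the most highly expressed of the 12 rises in CPM. It was at 51.6 and 73.8 CPM in WT, 30.5 and 34.2 in STAT3-/-, and 539 and 597 in STAT3-/-PD-1-/- T cells. Both STAT3-/-PD-1-/- libraries were far above the others, and the log2 fold change was 3.18 ± 0.21 (SE; adjusted p = 0.00108). The scaffold protein gene Tanc2, 4.65 Mb from Stat3, was at 2.99 and 2.87 CPM in WT, 13.3 and 15.8 in STAT3-/-, and 26.5 and 40.7 in STAT3-/-PD-1-/- T cells, a log2 fold change of 3.52 ± 0.27. The STAT3-/- libraries lay between the other groups for this gene. Cybb, the catalytic subunit of the phagocyte NADPH oxidase, was also raised in both knockout groups. It was at 6.21 and 4.90 CPM in WT, 72.5 and 72.9 in STAT3-/-, and 32.5 and 19 in STAT3-/-PD-1-/- T cells, so that its highest level was in STAT3-/- T cells. The log2 fold change over WT was 2.21 ± 0.28 in STAT3-/-PD-1-/- T cells. Phagocytes also express this gene, and the part of other cells in its level was not tested.

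Metabolic enzymes were among these rises. Gldc, the glycine decarboxylase of the mitochondrial glycine cleavage system, was at 13.3 and 15.7 CPM in WT, 12.3 and 10.2 in STAT3-/-, and 90.5 and 98.3 in STAT3-/-PD-1-/- T cells, a log2 fold change of 2.7 ± 0.18. Asns, which makes asparagine, was at 7.73 and 8.53 CPM in WT and 28.8 and 40.1 in STAT3-/-PD-1-/- T cells, a log2 fold change of 2.08 ± 0.23. For both enzymes the STAT3-/- values were below those of WT, and Asns was at 6.12 and 5.12 CPM there. Nos1, the neuronal nitric oxide synthase, was at 5.00 and 6.59 CPM in WT and 45.4 and 41.6 in STAT3-/-PD-1-/- T cells, a log2 fold change of 2.91 ± 0.21. The serine protease inhibitor Serpine2 rose by 3.28, the anchoring filament protein gene Lad1 by 3.23, the gap junction gene Gjb2 by 2.32, the thyroglobulin gene Tg by 2.25, the metalloprotease Adamts14 by 2.22, and the kinase Dclk1 by 2.14. Several of these 6 genes are known from tissues other than T cells, and their levels here were moderate, between 17.2 CPM for Gjb2 and 81.6 CPM for Dclk1 in the STAT3-/-PD-1-/- libraries.

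**Figure D2:**
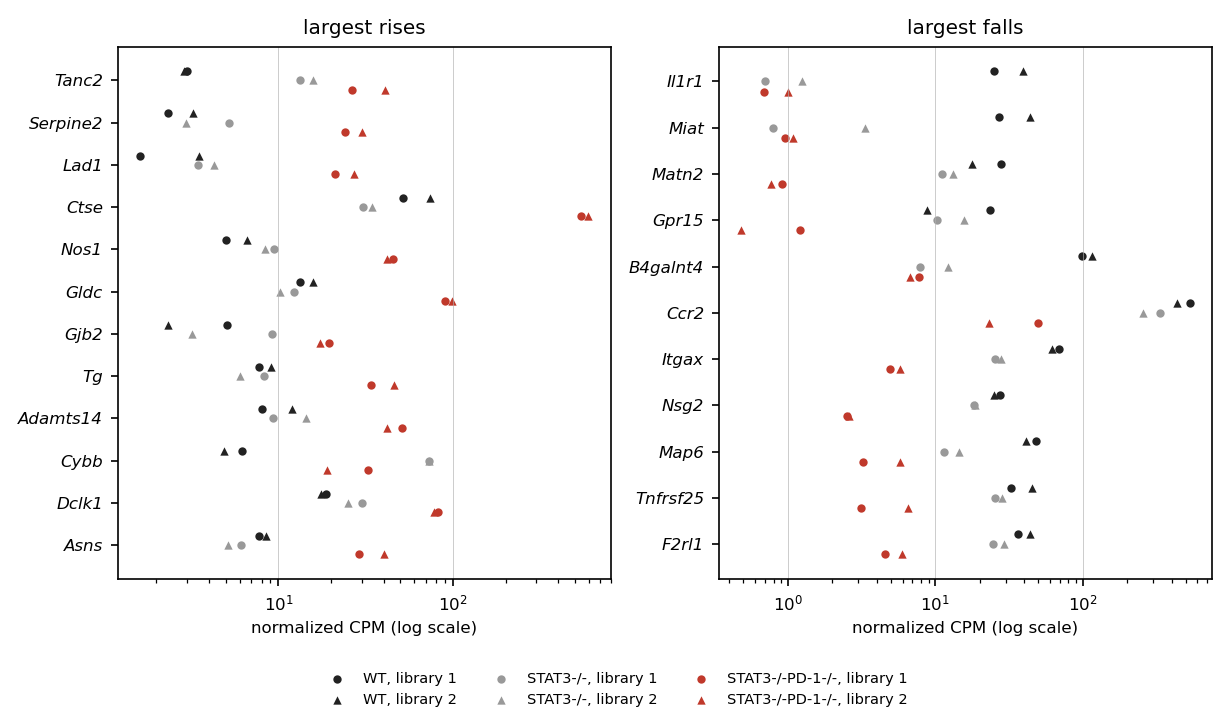
Normalized CPM on a log axis for the 12 genes with the largest rises (left) and 11 of those with the largest falls (right), with 1 point per liver CD4+ library and colors for WT, STAT3-/-, and STAT3-/-PD-1-/-. The STAT3-/-PD-1-/- points lie apart from the WT points for all 23 genes shown. For Il1r1, Miat, and B4galnt4, the STAT3-/- points lie with or near those of STAT3-/-PD-1-/-.

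Of the 12 largest falls, 11 are given here. Il1r1, the signaling receptor for IL-1, fell the most. It was at 24.9 and 39.1 CPM in WT, 0.696 and 1.25 in STAT3-/-, and 0.691 and 1.00 in STAT3-/-PD-1-/- T cells, a log2 fold change of -5.22 ± 0.39 (SE; adjusted p = 0.00134). Both groups without STAT3 were thus at a like low level. The glycosyltransferase B4galnt4 followed the same order, with 99.1 and 115 CPM in WT, 7.88 and 12.2 in STAT3-/-, and 7.74 and 6.75 in STAT3-/-PD-1-/- T cells (-3.88 ± 0.25). The long noncoding RNA Miat was at 26.8 and 44.1 CPM in WT, 0.788 and 3.34 in STAT3-/-, and 0.951 and 1.08 in STAT3-/-PD-1-/- T cells (-5.11 ± 0.61).

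Ccr2 and Itgax had STAT3-/- values closer to those of WT on the log scale. Ccr2, the receptor for CCL2, was at 530.2 and 435 CPM in WT, 332 and 255 in STAT3-/-, and 50 and 23.2 in STAT3-/-PD-1-/- T cells (-3.72 ± 0.37). Itgax, the integrin CD11c, was at 69.2 and 62.1 CPM in WT, 25.6 and 27.8 in STAT3-/-, and 4.97 and 5.78 in STAT3-/-PD-1-/- T cells (-3.61 ± 0.18). Both genes were lower in both STAT3-/-PD-1-/- libraries than in any other CD4+ library. Itgax is also a marker of dendritic cells and made up nearly all of their summed level, 69.3 and 62.2 CPM in WT and 5.06 and 5.87 in STAT3-/-PD-1-/- T cells. The other dendritic cell markers (Xcr1, Clec9a, Flt3, Siglech, and Cd209a) had at most 2 counts in any CD4+ library. The 12 also held Matn2 (-4.76), the gut-homing receptor Gpr15 (-4.26), Nsg2 (-3.35), the microtubule-associated Map6 (-3.32), the death-domain receptor Tnfrsf25 (-2.99), and the protease-activated receptor F2rl1 (-2.94). Of the 24 genes and the 2 targeted genes, 17 kept the call in all 13 alternative settings. The others (Stat3, Serpine2, Lad1, Gjb2, Tg, Adamts14, Asns, Miat, and Gpr15) lost it without replicate 2 of STAT3-/-PD-1-/-, and none reversed. Stat3, Gjb2, Adamts14, Miat, and Gpr15 also lost it without replicate 1 of STAT3-/-PD-1-/-, and Stat3 and Gjb2 without replicate 2 of WT. Leaving out 1 library moved some of these folds by over 1.5 times. Without replicate 1 of STAT3-/-PD-1-/-, Ccr2 was at -4.38 and Gpr15 at -5.05, and without replicate 2 Tnfrsf25 was at -3.62. Without replicate 1 of WT, Gpr15 was at -3.37 and Gjb2 at 2.98, and without replicate 2 Lad1 was at 3.89.

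Gene lists gave the broader picture. The lists of DNA replication, mitosis, and serine, nucleotide, and glucose metabolism had more members higher than lower. Those of tissue homing, memory, and helper regulators and cytokine receptors had more members lower. The DNA replication list had 27 of 36 tested members higher and 0 lower, and the list of helper regulators and cytokine receptors had 2 of 27 higher and 14 lower. For all genes, 7.21% were higher and 5.65% lower, with a median of -0.01.

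**Figure D3:**
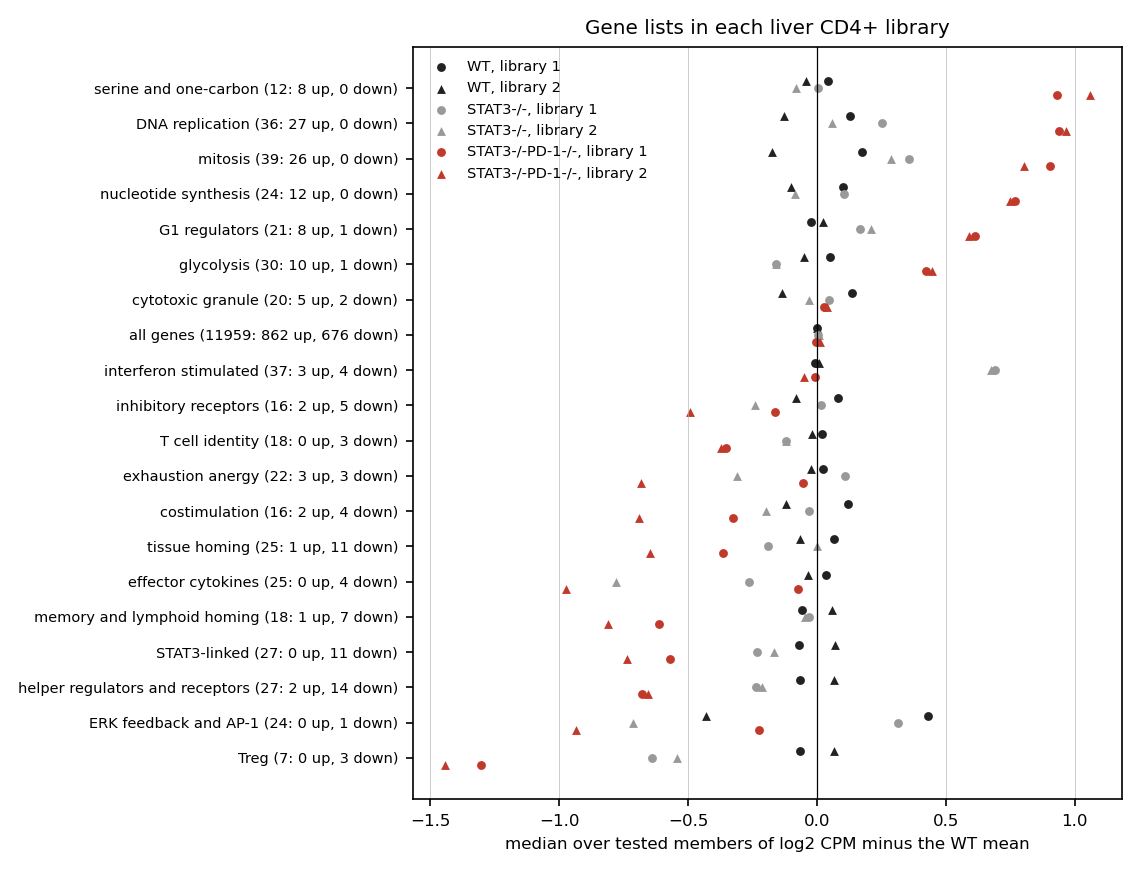
For each gene list, the median over its tested members of log2 CPM minus the WT mean (x axis), with 1 point per liver CD4+ library and the number of tested, higher, and lower members beside the name. Both STAT3-/-PD-1-/- points lie near 1 for the serine and DNA replication lists and below -1 for the Treg list, while all genes lie at 0.

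Most genes of DNA replication rose. Of 36 tested, 27 rose and none fell, and the median log2 fold change was 0.97. The origin licensing and helicase group had 13 of 16 members higher. Gins1, of the replicative helicase, was at 14.1 and 10.3 CPM in WT, 15.1 and 12.7 in STAT3-/-, and 33.8 and 31.9 in STAT3-/-PD-1-/- T cells (1.43 ± 0.21; adjusted p = 0.00866). Mcm10, an initiation factor, was at 37.5 and 34.4 CPM in WT, 37.8 and 41.2 in STAT3-/-, and 88.2 and 92.7 in STAT3-/-PD-1-/- T cells (1.33 ± 0.15). For both genes the STAT3-/- libraries lay with or near WT. The group of polymerases, clamp, and ligase had 14 of 20 members higher, such as Lig1, the replicative DNA ligase, at 136 and 127 CPM in WT and 316 and 334 in STAT3-/-PD-1-/- T cells (1.30 ± 0.14). Pole, the catalytic subunit of the leading strand polymerase, rose by 1.19, and Rfc3, of the clamp loader, by 1.22. Not every member passed the test. Pcna, the sliding clamp, was at 150.4 and 85.0 CPM in WT and 199.9 and 163 in STAT3-/-PD-1-/- T cells (adjusted p = 0.306, and 0.0211 with the replicate block). The count of 27 became 2 and 0 without replicate 1 and replicate 2 of STAT3-/-PD-1-/-, and 21 and 9 without those of WT. The median stayed between 0.79 and 1.08 in these fits.

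Mitotic genes followed. Of 39 tested, 26 rose and none fell, with a median of 0.82. Among cyclins and kinases, 13 of 15 rose. Nek2, a centrosome kinase, was at 74.6 and 68.1 CPM in WT, 78.0 and 76.9 in STAT3-/-, and 157 and 174 in STAT3-/-PD-1-/- T cells (1.21 ± 0.14; adjusted p = 0.00471). The spindle checkpoint genes Bub1b and Bub1 rose by 1.10 ± 0.16 and 1.06 ± 0.23, and the mitotic cyclin gene Ccnb2 by 1.02 ± 0.15. Cdc20, the activator of the anaphase-promoting complex, was at 52.0 and 54.6 CPM in WT, 63.0 and 70.5 in STAT3-/-, and 106 and 115 in STAT3-/-PD-1-/- T cells (1.05 ± 0.15). Mki67, which encodes the proliferation antigen Ki-67, was at 1647 and 1445 CPM in WT, 1884 and 1920.2 in STAT3-/-, and 2709 and 2743 in STAT3-/-PD-1-/- T cells (0.82 ± 0.12). The STAT3-/-PD-1-/- libraries were the highest of the 6 for each of these 3 genes. The count of 26 became 1 and 0 without replicate 1 and replicate 2 of STAT3-/-PD-1-/-, and 20 and 8 without those of WT, with medians between 0.71 and 0.98.

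Genes that govern entry into the cycle were split. Of 21 tested, 8 rose and 1 fell, with a median of 0.61. The rises were in E2f8, E2f7, and E2f1, Ccne1, Cdk4, Cdk2, Rbl1, and Cdkn2a. E2f8, an atypical E2F repressor, was at 68.1 and 83.4 CPM in WT, 84.5 and 93.7 in STAT3-/-, and 158 and 186 in STAT3-/-PD-1-/- T cells (1.18 ± 0.17). Cdkn2a, whose transcripts encode the inhibitor p16 and the p53 activator ARF, rose by 2.09 ± 0.26 from a low level of 1.61 and 1.94 CPM in WT to 7.04 and 8.07 in STAT3-/-PD-1-/- T cells. Cdkn1b, the inhibitor p27 that holds resting T cells out of the cycle, was the member that fell. It was at 134 and 118 CPM in WT, 145 and 129.7 in STAT3-/-, and 81.1 and 73.1 in STAT3-/-PD-1-/- T cells (-0.71 ± 0.15). The count of 8 rises became 1 and 0 without replicate 1 and replicate 2 of STAT3-/-PD-1-/-, and 2 and 4 without those of WT, and Cdkn1b was not called in any of these 4 fits. In all, 3 members fell with the replicate block.

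Sequence upstream of these genes was read because members of each list moved together. RefSeq promoter sequence (build GRCm38.p6, 250 bases before to 50 bases after the start) was matched for 9499 of the 11959 genes tested (79.4%), for 29 of the 36 DNA replication genes, and for 33 of the 39 mitotic genes. The letters TTTCCCGC or TTTGGCGC, bound by E2F factors, stood on either strand in 12 of the 29 DNA replication promoters (41.4%), 0 of the 33 mitotic promoters, and 3.27% of all 9499. The letters TTTGAA, the core of the cell cycle homology region (CHR), stood in 23 of the 33 mitotic promoters (69.7%), 4 of the 29 DNA replication promoters (13.8%), and 12.2% of all. CCAAT, the NF-Y box, stood in 65.5% of the DNA replication and 72.7% of the mitotic promoters, against 39.6% of all. It was not particular to these lists, with 70% of 10 serine and one-carbon promoters and 54.5% of 22 promoters of STAT3-linked genes. Of 22 nucleotide synthesis promoters, 40.9% held it. These matches are letters in a window and no measure of binding, and they depend on which genes are listed, not on the levels measured. Stretches upstream of the start are shown for the 3 called members of each list with such a match that rose the most, in the direction of the gene, with the matched letters in capitals.
Cdc6, chr11:98907987-98908046 (plus strand), E2F letters: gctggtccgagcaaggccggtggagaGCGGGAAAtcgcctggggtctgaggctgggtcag
Mcm5, chr8:75109334-75109393 (plus strand), E2F letters: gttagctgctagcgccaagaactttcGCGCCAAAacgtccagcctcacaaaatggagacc
Mcm7, chr5:138172015-138172074 (minus strand), E2F letters: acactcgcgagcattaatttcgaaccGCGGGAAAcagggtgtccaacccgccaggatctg
Cdc20, chr4:118437344-118437387 (minus strand), CHR letters: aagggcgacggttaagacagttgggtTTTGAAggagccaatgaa
Ccnb2, chr9:70421690-70421747 (minus strand), CHR letters: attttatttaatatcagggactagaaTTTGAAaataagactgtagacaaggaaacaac
Espl1, chr15:102296240-102296292 (plus strand), CHR letters: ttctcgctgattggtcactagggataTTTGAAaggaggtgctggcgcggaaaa
The genes behind these stretches moved by like amounts. The licensing factor Cdc6 rose by 1.19 ± 0.22, and the helicase subunits Mcm5 and Mcm7 by 1.13 ± 0.17 and 1.12 ± 0.16. Cdc20 and Ccnb2 are given above, and Espl1, the separase that frees sister chromatids, rose by 1.02 ± 0.20.

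Serine and one-carbon metabolism, which supplies carbon units for purines and thymidylate, had most of its tested genes higher. Of 12 tested, 8 rose and none fell, with a median of 1.02. Shmt1, the cytosolic serine hydroxymethyltransferase, was at 16.3 and 14.5 CPM in WT, 12.2 and 11.4 in STAT3-/-, and 48.4 and 58.8 in STAT3-/-PD-1-/- T cells (1.80 ± 0.18; adjusted p = 0.00321). Shmt2, its mitochondrial counterpart, was at 51.1 and 60.7 CPM in WT, 55.7 and 57.1 in STAT3-/-, and 113 and 133 in STAT3-/-PD-1-/- T cells (1.14 ± 0.16). Phgdh, the first enzyme of serine synthesis, was at 19.5 and 18.4 CPM in WT, 20 and 18 in STAT3-/-, and 36.5 and 47.8 in STAT3-/-PD-1-/- T cells (1.15 ± 0.19). In each of the 3, the STAT3-/- libraries lay within or near the WT range, and both STAT3-/-PD-1-/- libraries lay above it. The trifunctional folate enzyme gene Mthfd1 rose by 1.18 ± 0.14, and the thymidylate synthase gene Tyms by 1.05 ± 0.24. The mitochondrial enzyme gene Mthfd2 did not pass the test, at 85.0 and 83.7 CPM in WT and 86.7 and 93.7 in STAT3-/-PD-1-/- T cells. The count of 8 became 1 without either STAT3-/-PD-1-/- library, and 8 and 4 without replicate 1 and replicate 2 of WT, with medians between 0.91 and 1.05. In all, 1 member fell with the replicate block.

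Nucleotide synthesis genes were higher in part, with 12 of 24 tested members higher, none lower, and a median of 0.74. In the purine branch, Pfas was at 24.7 and 33.1 CPM in WT, 26.3 and 33.3 in STAT3-/-, and 79.0 and 71.5 in STAT3-/-PD-1-/- T cells (1.38 ± 0.20; adjusted p = 0.00834). Ppat, which catalyzes the committed step of purine synthesis, rose by 0.97 ± 0.17, Gart by 0.99 ± 0.14, and Impdh2, which leads to guanine nucleotides, by 0.94 ± 0.20. For pyrimidines and deoxynucleotides, Rrm1, the large subunit of ribonucleotide reductase, was at 379.5 and 267 CPM in WT, 403 and 307 in STAT3-/-, and 653 and 662 in STAT3-/-PD-1-/- T cells (1.02 ± 0.21). Dut, which clears dUTP, rose by 1.13 ± 0.15. The count of 12 rises became 0 without either STAT3-/-PD-1-/- library, and 6 and 4 without replicate 1 and replicate 2 of WT, with medians between 0.61 and 0.81.

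Glycolysis was higher in part. Of 30 tested genes, 10 rose and 1 fell, with a median of 0.44. Among enzymes of the lower steps, from triose phosphates to lactate, 7 of 9 rose, and among those of the upper steps 2 of 9. Aldoa, the muscle-type aldolase, was at 346 and 359.5 CPM in WT, 310.0 and 328 in STAT3-/-, and 559.9 and 641 in STAT3-/-PD-1-/- T cells (0.77 ± 0.14). Pkm, which makes pyruvate, was at 633 and 608 CPM in WT, 555 and 473 in STAT3-/-, and 931 and 1024 in STAT3-/-PD-1-/- T cells (0.66 ± 0.14). Ldha, which makes lactate, was at 689 and 576 CPM in WT, 531 and 411 in STAT3-/-, and 984 and 1004 in STAT3-/-PD-1-/- T cells (0.65 ± 0.17). The call of Ldha was lost with RLE factors, another scaling. For Aldoa, Pkm, and Ldha, both STAT3-/- libraries were below the WT libraries and both STAT3-/-PD-1-/- libraries above them. Pfkl, the liver-type phosphofructokinase, rose by 1.05 ± 0.17, Tpi1 by 1.53 ± 0.18, Eno3 by 1.48 ± 0.20, and Pgam1 by 1.02 ± 0.24. Tpi1 and Pgam1 have near-identical processed copies in the genome that can take or remove their reads, so their values are uncertain, as is that of Gapdh, at 4.11 and 4.52 CPM in WT and 4.8 and 4.18 in STAT3-/-PD-1-/- T cells.

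Glucose transporters did not follow the enzymes. Slc2a1, the transporter GLUT1, was at 88.6 and 65.4 CPM in WT and 86.7 and 67.4 in STAT3-/-PD-1-/- T cells and was not called (adjusted p = 0.999). Slc2a3, the high-affinity transporter GLUT3, was the member that fell, from 292 and 259 CPM in WT to 139.8 and 142 in STAT3-/-PD-1-/- T cells, with 189 and 203 in STAT3-/- T cells (-0.97 ± 0.14; adjusted p = 0.00834). Hk2, the inducible hexokinase, was at 83.1 and 75.5 CPM in WT, 59.2 and 33.4 in STAT3-/-, and 122 and 114 in STAT3-/-PD-1-/- T cells (adjusted p = 0.186). Its WT and STAT3-/-PD-1-/- libraries did not overlap, yet the test was not passed. The count of 10 glycolytic rises became 1 and 0 without replicate 1 and replicate 2 of STAT3-/-PD-1-/-, and 3 and 2 without those of WT, with medians between 0.34 and 0.60. In all, 2 members fell with the replicate block.

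**Figure D4:**
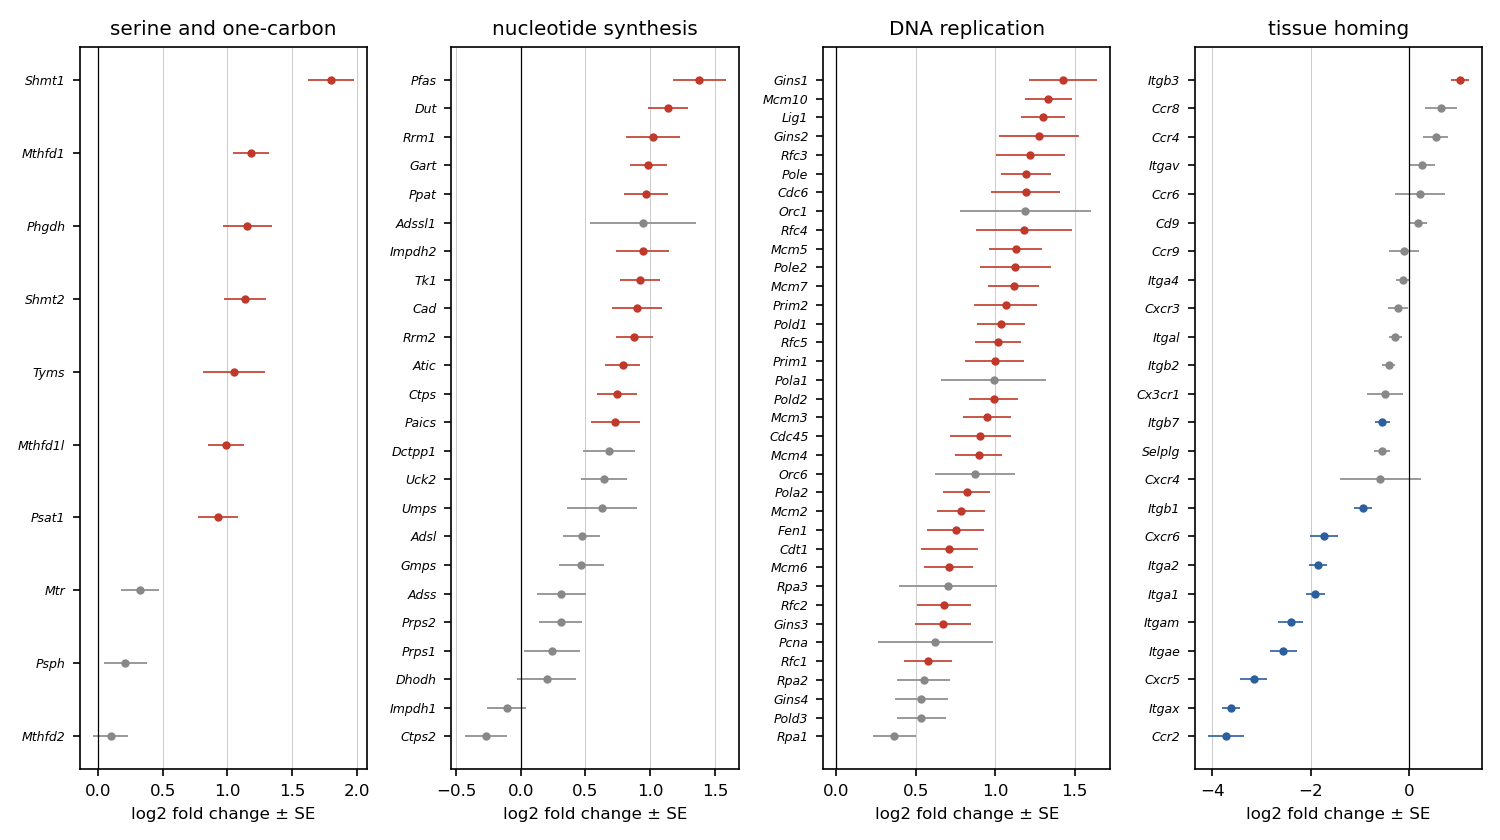
Log2 fold change ± SE of STAT3-/-PD-1-/- over WT liver CD4+ T cells (x axis) for tested members of 4 gene lists, in color where the gene was called. All 36 DNA replication genes lie above 0, and 10 of the 24 tissue homing genes shown were called lower, from Itgb7 to Ccr2, which fell by 3.72.

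Receptors that guide T cells into tissues were among the genes that fell the most. Of 25 tissue homing genes tested, 11 fell and 1 rose, with a median of -0.55. Of 11 chemokine receptors tested, 4 fell. Ccr2 is given above. Cxcr5, which leads follicular helper T cells to B cell follicles, was at 9.07 and 12.2 CPM in WT, 2.88 and 2.85 in STAT3-/-, and 1.25 and 1.12 in STAT3-/-PD-1-/- T cells (-3.16 ± 0.28; adjusted p = 0.0025). Cxcr6, a receptor of liver-resident T cells, fell from 797 and 672 CPM in WT to 286 and 155 in STAT3-/-PD-1-/- T cells, with 643 and 530.0 in STAT3-/- T cells. Cxcr3, the receptor of Th1 cells for interferon-induced chemokines, was not called, at 164 and 203 CPM in WT and 170.1 and 142 in STAT3-/-PD-1-/- T cells (adjusted p = 0.492).

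Integrins moved in both directions. Of 14 integrin and adhesion genes tested, 7 fell and 1 rose. Itgae, the CD103 chain that binds E-cadherin on epithelium, was at 6.43 and 7.51 CPM in WT, 4.08 and 4.18 in STAT3-/-, and 1.12 and 1.25 in STAT3-/-PD-1-/- T cells (-2.55 ± 0.27). Itgam, the CD11b chain, fell (-2.41 ± 0.26), as did the collagen receptor chains Itga1 (-1.90 ± 0.20) and Itga2 (-1.85 ± 0.18). Itgb1, their shared beta chain, was at 2153 and 1641 CPM in WT and 981 and 1000.2 in STAT3-/-PD-1-/- T cells, and at 3561 and 2683 in STAT3-/- T cells, the highest of the 3 groups. Itgb3, which lies 3.67 Mb from Stat3, was the member that rose, from 175 and 175 CPM in WT to 323 and 389.9 in STAT3-/-PD-1-/- T cells (1.03 ± 0.18). Itga4, the chain of VLA-4, was not called, at 1406 and 1286 CPM in WT and 1301 and 1149 in STAT3-/-PD-1-/- T cells. The count of 11 homing genes lower became 9 and 5 without replicate 1 and replicate 2 of STAT3-/-PD-1-/-, and 9 and 10 without those of WT. Itgb3 was not called in these 4 fits, and with the replicate block 2 homing genes rose.

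Some genes of memory and naive T cells fell. Of 18 tested, 7 fell and 1 rose, with a median of -0.60. Tcf7, which encodes TCF-1, a factor of naive, memory, and stem-like T cells, was at 131 and 188 CPM in WT, 88.0 and 96.4 in STAT3-/-, and 18 and 24.9 in STAT3-/-PD-1-/- T cells (-2.89 ± 0.24; adjusted p = 0.00208). Satb1, a chromatin organizer, was at 465 and 582 CPM in WT, 284 and 351 in STAT3-/-, and 216 and 222 in STAT3-/-PD-1-/- T cells (-1.26 ± 0.17). In both, the STAT3-/- values lay between those of the other groups. Il7r, the IL-7 receptor chain needed for survival of resting T cells, was at 749.7 and 846 CPM in WT, 696 and 882 in STAT3-/-, and 457 and 387 in STAT3-/-PD-1-/- T cells (-0.92 ± 0.17). S1pr1, which leads T cells out of tissues, fell (-0.84 ± 0.19), as did the low-level regulator Id3 (-3.18 ± 0.54). Myb rose, from 41.4 and 34.9 CPM in WT to 96.0 and 94.2 in STAT3-/-PD-1-/- T cells (1.32 ± 0.18). The count of 7 falls became 2 without either STAT3-/-PD-1-/- library and 5 without either WT library, and the call of Myb was lost without either STAT3-/-PD-1-/- library. The median reached -0.83 without replicate 1 of STAT3-/-PD-1-/-. In all, 2 members rose with the replicate block.

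All 6 tested regulators of the Th2, Tfh, and Th17 programs fell, with a median of -1.70. Bcl6, the factor of follicular helper T cells, was at 10.4 and 18.7 CPM in WT, 7.10 and 8.85 in STAT3-/-, and 2.98 and 3.33 in STAT3-/-PD-1-/- T cells (-2.20 ± 0.33). Maf, which drives IL-21 and IL-10, was at 374 and 411 CPM in WT, 328 and 332 in STAT3-/-, and 132 and 92.9 in STAT3-/-PD-1-/- T cells (-1.80 ± 0.19; adjusted p = 0.00395). Maf stayed near its WT level in STAT3-/- T cells. Ahr, a receptor for aryl hydrocarbons, fell (-1.59 ± 0.18), as did Gata3, the Th2 factor (-0.58 ± 0.14). The call of Gata3 was lost with scaling by totals alone and without any 1 of the 4 libraries compared.

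The Th1 side showed no common direction. Of 10 Th1 regulators tested, 2 rose and 2 fell, with a median of 0.04. Tbx21, which encodes T-bet, was at 93.7 and 147 CPM in WT, 122 and 219 in STAT3-/-, and 162 and 77.8 in STAT3-/-PD-1-/- T cells, with overlapping groups. Eomes, a related factor, rose from 3.40 and 2.87 CPM in WT to 7.78 and 8.76 in STAT3-/-PD-1-/- T cells (1.40 ± 0.26), and Irf8 rose by 1.10 ± 0.19. Id2, which restrains E proteins, fell from 872 and 1112 CPM in WT to 411 and 427 in STAT3-/-PD-1-/- T cells (-1.24 ± 0.15). Hlx was the other that fell, from 25 and 38 counts in WT to 6 and 5 in STAT3-/-PD-1-/- T cells. Of 11 receptors for effector cytokines, 6 fell and none rose, such as Il27ra, the IL-27 receptor (-1.19 ± 0.18). The IL-18 receptor chain Il18r1 was at 868 and 1089.5 CPM in WT and 526 and 454 in STAT3-/-PD-1-/- T cells. Over regulators and receptors together, the count of 14 falls became 3 and 1 without replicate 1 and replicate 2 of STAT3-/-PD-1-/-, and 9 and 10 without those of WT, and that of 2 rises became 0 and 0 and then 0 and 1. The median lay between -0.75 and -0.58. In all, 4 members rose with the replicate block.

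Among effector cytokines, 4 of 25 tested fell and none rose. Ifng was at 474 and 237 CPM in WT, 444 and 126 in STAT3-/-, and 385 and 155 in STAT3-/-PD-1-/- T cells, and Csf2, which encodes GM-CSF, at 30.6 and 16.8, 15 and 4.45, and 39.1 and 14.6 in the same order. Both genes were higher in replicate 1 of every group, and the WT and STAT3-/-PD-1-/- groups overlapped. Il17a had 51 and 36 counts in WT, 0 and 0 in STAT3-/-, and 2 and 0 in STAT3-/-PD-1-/- T cells. The other falls were in Ltb, Tnfsf10, which encodes the death ligand TRAIL, and Il2. Tnfsf10 was at 121 and 149 CPM in WT, 87.4 and 96.5 in STAT3-/-, and 60.9 and 51.7 in STAT3-/-PD-1-/- T cells (-1.26 ± 0.17). The median of -0.58 was not stable, since it was 0.11 without replicate 1 of WT and -1.15 without replicate 1 of STAT3-/-PD-1-/-. None of the 4 falls kept its call without either STAT3-/-PD-1-/- library, and 2 of them, Il17a and Tnfsf10, kept it without either WT library. With the replicate block, 8 fell and 2 rose.

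Some regulatory T cell genes fell. Of 7 tested, 3 did, with a median of -1.11. Foxp3, the defining factor of regulatory T cells, was at 20.6 and 30.6 CPM in WT, 16.1 and 25.1 in STAT3-/-, and 3.37 and 3.45 in STAT3-/-PD-1-/- T cells (-2.91 ± 0.31; adjusted p = 0.00395). Ikzf2, which encodes Helios, was at 82.5 and 73.2 CPM in WT, 121 and 112 in STAT3-/-, and 43.6 and 28.5 in STAT3-/-PD-1-/- T cells (-1.11 ± 0.22). Foxp3 and Ikzf2 were lower in both STAT3-/-PD-1-/- libraries than in any other CD4+ library. Itgae, given above, was the other fall. Without replicate 1 and replicate 2 of STAT3-/-PD-1-/-, 2 and 0 of the 3 were called, and without those of WT 2 and 3 were.

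Genes linked to STAT3 signaling fell or were not called. Of 27 tested, 11 fell, the deleted Stat3 itself among them, and none rose, with a median of -0.67. In STAT3-/- over WT, the median of the same list was -0.15, and 40 of all 11959 genes tested were called. Among feedback genes and targets, 6 of 11 fell in STAT3-/-PD-1-/- T cells. Cish, a feedback inhibitor induced by STATs, was at 189 and 155 CPM in WT, 121 and 126 in STAT3-/-, and 73.6 and 51.2 in STAT3-/-PD-1-/- T cells (-1.46 ± 0.21; adjusted p = 0.00766). Pim2, a survival kinase, was at 81.3 and 98.2 CPM in WT, 67.4 and 61.3 in STAT3-/-, and 31.4 and 31.0 in STAT3-/-PD-1-/- T cells (-1.52 ± 0.16). For both genes, the STAT3-/- values lay between those of the other groups. Bcl3, a nuclear IκB protein, fell (-1.57 ± 0.36), as did Socs1 (-0.79 ± 0.21). Without replicate 2 of WT, Bcl3 was at -0.90 and was not called, and Socs1 lost its call in 6 of 13 alternative settings, scaling by totals alone and the stricter count filter among them. Socs3, the classic STAT3-induced inhibitor, was at 133 and 104 CPM in WT, 99.0 and 29.3 in STAT3-/-, and 45.6 and 20.1 in STAT3-/-PD-1-/- T cells and was not called (adjusted p = 0.0756, and 0.00269 with the replicate block). Among receptors, Il21r fell (-0.67 ± 0.17), a call lost with totals alone, and Il6st, the gp130 chain shared by IL-6 family receptors, was not called, at 46.2 and 71.4 CPM in WT and 48.3 and 62.7 in STAT3-/-PD-1-/- T cells. The count of 11 falls became 2 and 0 without replicate 1 and replicate 2 of STAT3-/-PD-1-/-, and 7 and 4 without those of WT.

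Genes of the cytotoxic granule moved in both directions. Of 20 tested, 5 rose and 2 fell, with a median of 0.04. Gzmf had 16 and 5 counts in WT, 24 and 7 in STAT3-/-, and 324 and 400 in STAT3-/-PD-1-/- T cells (5.02 ± 0.60; adjusted p = 0.00485). Without replicate 1 of WT, the change of Gzmf was 6.12, and without replicate 2 it was 4.37. The neighbors Gzmd and Gzme, closely related in sequence, had 11 and 11 and 17 and 20 counts in STAT3-/-PD-1-/- T cells and at most 1 count in WT, so reads could be shared among them. The call of Gzmd was lost in DESeq2, where its log2 fold change was 5.83, against 6.42 in edgeR. Prf1, which encodes perforin, rose from 71.7 and 81.2 CPM in WT to 166 and 109 in STAT3-/-PD-1-/- T cells (0.84 ± 0.22). The granzyme inhibitor gene Serpinb9b was at 29.0 and 20 CPM in WT, 91.6 and 62.0 in STAT3-/-, and 102 and 73.9 in STAT3-/-PD-1-/- T cells, so it was high in both knockout groups. Gzma fell, from 357 and 230.4 CPM in WT to 94.2 and 95.2 in STAT3-/-PD-1-/- T cells, with 160.0 and 119.7 in STAT3-/- T cells (-1.63 ± 0.24), and so did Ctsw (-0.92 ± 0.14). Gzmb, the granzyme most used to mark cytotoxic cells, was not called, at 1326 and 895 CPM in WT, 513 and 306 in STAT3-/-, and 871 and 729.9 in STAT3-/-PD-1-/- T cells (adjusted p = 0.311, and 0.0447 with the replicate block). The 5 rises became 1 and 0 without replicate 1 and replicate 2 of STAT3-/-PD-1-/-, and 2 and 3 without those of WT, and the 2 falls were kept without either WT library and lost without either STAT3-/-PD-1-/- library. With the replicate block, 8 rose. Cd8a, given above, was highest in replicate 2 of STAT3-/-PD-1-/-, and its part in these values was not tested. The list's median was below 0 without replicate 2 of STAT3-/-PD-1-/- (-0.10) or of WT (-0.05).

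Inhibitory receptors other than PD-1 did not share a direction. Of 16 tested receptors and ligands, 5 fell, Pdcd1 among them, and 2 rose, with a median of -0.34. Vsir, which encodes VISTA, was at 379 and 370.4 CPM in WT, 279 and 318 in STAT3-/-, and 182 and 191 in STAT3-/-PD-1-/- T cells (-1.01 ± 0.14; adjusted p = 0.00696). Btla fell (-1.08 ± 0.18), as did Lair1 (-1.24 ± 0.21) and Tigit (-0.59 ± 0.13). Lag3 was not called, at 179.9 and 228 CPM in WT and 193 and 160.2 in STAT3-/-PD-1-/- T cells, nor was Havcr2, which encodes TIM-3, at 274 and 222 CPM in WT and 385 and 294 in STAT3-/-PD-1-/- T cells (adjusted p = 0.209, and 0.0188 with the replicate block). Cd244a and the B7 ligand gene Cd80 rose, by 1.24 ± 0.31 and 1.11 ± 0.25. Without replicate 1 and replicate 2 of STAT3-/-PD-1-/-, Pdcd1 alone of the 5 falls kept its call, and the 2 rises became 0 and 0. The falls became 4 and 3 and the rises 0 and 1 without those of WT.

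Among costimulatory genes, 4 of 16 fell and 2 rose, with a median of -0.54. Icos, the inducible costimulator that supports follicular helper T cells, was at 1428 and 1104 CPM in WT, 859.7 and 529 in STAT3-/-, and 582 and 445 in STAT3-/-PD-1-/- T cells (-1.30 ± 0.26). Cd40lg, through which T cells help B cells and dendritic cells, fell (-1.01 ± 0.20), as did Tnfsf8, the CD30 ligand (-2.13 ± 0.26). The rises were in Cd70, the ligand of CD27, from 1.07 and 1.65 CPM in WT to 10.3 and 9.56 in STAT3-/-PD-1-/- T cells (2.86 ± 0.29; adjusted p = 0.00366), and in Tnfrsf9, which encodes 4-1BB, from 111 and 91.9 to 216 and 183 (0.98 ± 0.20). The STAT3-/- libraries lay near WT for Cd70, at 1.81 and 1.69 CPM. The 4 falls became 1 without either STAT3-/-PD-1-/- library, and 2 and 4 without replicate 1 and replicate 2 of WT, and 1 of the 2 rises was left without either STAT3-/-PD-1-/- library or replicate 2 of WT. With the replicate block, 8 fell.

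The list of exhaustion and anergy genes had 3 of 22 members higher and 3 lower. Tox, a regulator of exhausted T cells, was at 86.1 and 94.4 CPM in WT, 204 and 180.1 in STAT3-/-, and 199 and 175 in STAT3-/-PD-1-/- T cells (1.05 ± 0.15). Its relative Tox2 moved the other way, from 22 and 34.3 CPM in WT to 5.70 and 9.24 in STAT3-/-PD-1-/- T cells, with 9.65 and 11.1 in STAT3-/- T cells (-1.91 ± 0.31). In both, the 2 knockout groups were close to each other. The anergy genes Ndrg1 and Rnf128, which encodes the ubiquitin ligase GRAIL, rose by 1.59 ± 0.17 and 1.03 ± 0.27. Nt5e, which encodes CD73, a surface marker of anergic CD4+ T cells, fell from 61.9 and 59.6 CPM in WT to 16.3 and 20.4 in STAT3-/-PD-1-/- T cells (-1.72 ± 0.21), and Itch fell (-0.59 ± 0.14). Members of 1 list thus changed in both directions, and the median of -0.45 was 0.017 without replicate 1 of WT. Without replicate 1 and replicate 2 of STAT3-/-PD-1-/-, 1 and 1 rises and 0 and 0 falls were called, and without those of WT 2 and 3 rises and 2 and 2 falls. In all, 5 members fell with the replicate block.

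Immediate early and ERK feedback genes had a median of -0.84, and 1 of 24 was called, against 12 called lower and 1 higher with the replicate block. The gene called without the block was Ier3, which fell (-1.62 ± 0.34), and its call was lost without any 1 of the 4 libraries compared. Fos was at 294 and 126 CPM in WT, 301 and 130.2 in STAT3-/-, and 104 and 38.9 in STAT3-/-PD-1-/- T cells (adjusted p = 0.135), and Nr4a1, induced by T cell receptor signals, at 502 and 63.9, 455 and 52.6, and 174 and 52.3 in the same order (adjusted p = 0.492). Replicate 1 was above replicate 2 in every group, by more than the groups differed for Nr4a1. Fos and Fosb were called in the fit with the replicate block, with adjusted p = 3.41e-04 and 7.31e-04, and Nr4a1 was not (0.065). Without replicate 1 of WT the median was -0.15.

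Interferon-stimulated genes showed no common direction. Of 37 tested, 3 rose and 4 fell, with a median of -0.09. Iigp1, a GTPase induced by IFN-γ, was at 4.15 and 8.74 CPM in WT, 48.6 and 63.1 in STAT3-/-, and 32.5 and 18 in STAT3-/-PD-1-/- T cells (1.96 ± 0.40). Without replicate 2 of WT, the change of Iigp1 was 2.59. Gbp3 rose by 0.90 ± 0.20. Xaf1, an interferon-induced factor, was at 118 and 119 CPM in WT, 205 and 198 in STAT3-/-, and 75.2 and 77.6 in STAT3-/-PD-1-/- T cells (-0.63 ± 0.13), so that the knockout groups lay on opposite sides of WT. The RNA sensor gene Ddx58 fell (-0.75 ± 0.15). Without either STAT3-/-PD-1-/- library, none of the 7 was called, and without replicate 1 and replicate 2 of WT 0 and 1 were. With the replicate block, 5 rose and 6 fell.

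The same comparison was available in liver CD8+ T cells, where 2066 of 12002 genes tested were called (17.2%, with 9.01% higher and 8.21% lower). An interaction over the 12 libraries tested for each of 12334 genes whether the change differed between the subsets. It called 1 gene (0.00811%) in edgeR, with 547 at an unadjusted p under 0.05. DESeq2 called 75, so that the count depends on the tool. The gene was Ccl5, a chemokine of effector T cells. In CD4+ T cells it was at 46.9 and 53.4 CPM in WT, 154 and 165 in STAT3-/-, and 68.9 and 71.2 in STAT3-/-PD-1-/-, a log2 fold change of 0.48 ± 0.14 that was not called (adjusted p = 0.0684, and 0.0181 with the replicate block). In CD8+ T cells it was at 395 and 359 CPM in WT and 105 and 99.9 in STAT3-/-PD-1-/-, a log2 fold change of -1.88. The difference between the subsets was 2.35 ± 0.17 (SE; adjusted p = 6.14e-04) and passed the threshold in all 12 alternatives. Tcf7 had log2 fold changes of -2.89 in CD4+ and -0.70 in CD8+ T cells, a difference of -2.20 that did not pass in this fit (adjusted p = 0.122).

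Most of the named genes had CD8+ values on the same side of 0. Ctse had log2 fold changes of 3.18 in CD4+ and 3.59 in CD8+ T cells, Ccr2 of -3.72 and -3.80, and Il1r1 of -5.22 and -5.17. Adamts14, by contrast, had values of 2.22 and 0.28, and its difference of 1.92 was not called (adjusted p = 0.093). According to the supplement, both subsets were sorted from the same livers, so their libraries are not independent samples, and the main interaction test does not use this. With the pool of recipients as a block, taken as the genotype and replicate number, 84 genes passed. Among the named genes, Adamts14, Tcf7, Eomes, Ikzf2, and Serpinb9b did not pass in the main test and passed in DESeq2, with all genes that had a count, and with a block for the replicate number or the pool. The differences were 1.88 for Eomes, -1.44 for Ikzf2, and 1.86 for Serpinb9b in the main test.

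**Figure D5:**
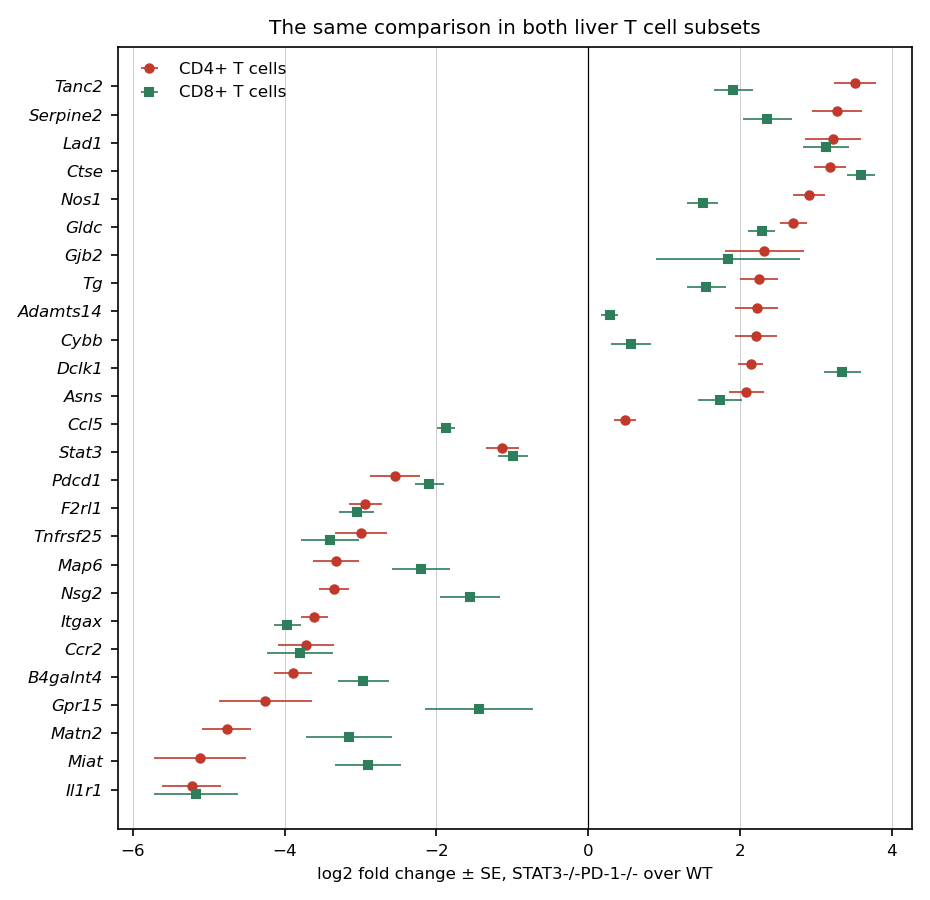
Log2 fold change ± SE of STAT3-/-PD-1-/- over WT in liver CD4+ (circles) and CD8+ (squares) T cells for 23 of the 24 genes with the largest changes in CD4+ T cells, the targeted genes Stat3 and Pdcd1, and Ccl5. The points of both subsets lie on the same side of 0 for every gene shown except Ccl5, at 0.48 in CD4+ and -1.88 in CD8+ T cells.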

How the data were processed

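Donor CD4+ T cells of the liver were sequenced as bulk RNA-Seq. According to the supplemental methods, STAR aligned the reads to mm10, and HTSeq-count assigned them to genes of RefSeq. The authors deposited these raw counts. Whether counting used strand was not given in the sources used here, and reads with several matches are limited by such counting. The authors also deposited RPKM values, which were not tested. The labels hold an adipogenic protocol of a mesenchymal cell line and another library kit, which do not match sorted T cells and were not used.

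Analysis of the counts used edgeR (version 4.0.16) under R (version 4.3.3): filterByExpr (minimum count 10, minimum total count 15), TMM, and the quasi-likelihood test over the 6 CD4+ libraries in 3 groups, with 3 residual degrees of freedom and a common biological coefficient of variation of 0.189. Adjusted p values are Benjamini-Hochberg values over all genes tested. The interaction used all 12 libraries. With 2 libraries against 2, an exact permutation test cannot go below p = 0.333, so none is given. Totals over the 6 libraries ran from 22273776 to 24016266 counts. In simulated counts for these 11959 genes, 100 genes changed 2-fold and 100 changed 4-fold, with no effect shared by same-numbered libraries. There, 34% of 2-fold and 86.7% of 4-fold changes were recovered, and 6.3% of calls were false. More genes were called in the data, and same-numbered libraries deviated together, so these shares may not carry over. For the interaction simulated on 12334 genes, 9% of 2-fold and 67% of 4-fold changes were recovered, and 8.43% of calls were false.

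Named genes are Stat3 and Pdcd1, the 12 largest rises and 12 largest falls among called genes whose mean log2 CPM was 3 or more and libraries that do not overlap (579 higher and 511 lower were eligible), and up to 6 called members of each list. Genes given outside this rule (Ano7, Rbm44, the members named as not called, and those named beside counts) were picked with their values in view. The members and lists were chosen with earlier results of these data known. Some genes that the rule names or the lists count are not reported here by name. Library numbers in the titles run on within each replicate number, though no label says that a number marks 1 experiment. Deviations of replicate 1 from the group mean correlated across the 11959 genes at 0.32 between WT and STAT3-/-PD-1-/-. They correlated at 0.659 between WT and STAT3-/-, and at 0.206 between STAT3-/- and STAT3-/-PD-1-/-. The main fit did not pair the libraries by number. A fit with the replicate number as a block was therefore run as an alternative. No set test was run. Alternatives were DESeq2 (version 1.42.0), RLE factors, totals alone, 2 other count filters, only the 4 libraries compared, a replicate block, a fold threshold, and leaving out each library. Promoters came from RefSeq, and figures were drawn with matplotlib (version 3.10.9).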

Additional observations from a re-analysis of the deposited data

Results flagged for a closer look

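Ccl5 was the 1 gene called by edgeR for a difference between the subsets with the default count filter and no block, and 28 to 84 genes passed with a block, without that filter, or in DESeq2. The change of STAT3-/-PD-1-/- over WT was 2.35 higher in CD4+ than in CD8+ T cells on the log2 scale (SE 0.17; adjusted p = 6.14e-04 in edgeR's quasi-likelihood interaction test), with 0.48 in CD4+ and -1.88 in CD8+ T cells. It passed in all 12 alternatives, with adjusted p from 3.1e-34 to 0.0129 and values from 2.27 to 2.42. In CD4+ T cells the level was highest in STAT3-/- libraries, at 153.8 and 165 CPM. No cause was tested.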

How the results depend on the processing

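The 1538 calls (862 higher, 676 lower) became 1531 with RLE factors, 1597 with totals alone, 1825 with all genes with at least 1 count, 1334 with at least 10 counts in every CD4+ library, and 1950 with the 4 libraries compared, and no called gene reversed. DESeq2 called 2165, with 1105 higher and 1060 lower. A log2 fold change of at least 1 left 901 calls (493 higher, 408 lower). Leaving out 1 library gave 62 to 1947 calls (23 to 1047 higher, 39 to 901 lower). Near Stat3, DESeq2 called 33 genes, and leaving out 1 library gave 1 to 27. Near Pdcd1 it gave 0 to 10. Leaving out a library means fewer samples, yet more genes were called than in the main fit without either STAT3-/- library. The causes were not tested.

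With a replicate block, 3104 genes were called (1646 higher, 1458 lower), 46 near Stat3, 12 immediate early and ERK feedback genes lower in place of 1, and 28 in the interaction in place of 1. No gene named as called lost its call. The interaction count was 75 in DESeq2, 84 with a block for the pool, and 50 with all genes with at least 1 count.

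With totals alone, the list medians that moved by more than the spread between replicates were those of G1 regulators (0.67), T cell identity (-0.32), and interferon-stimulated genes (-0.025, and -0.051 with the replicate block). Leaving out 1 library gave medians of 0.91 to 1.05 for serine and one-carbon, 0.34 to 0.60 for glycolysis, -0.83 to -0.57 for memory, -1.45 to -1.02 for Treg, -0.87 to -0.57 for STAT3-linked, -0.45 to -0.36 for T cell identity, and -0.10 to -0.042 for interferon-stimulated genes. Those of effector cytokines (-1.15 to 0.11, the latter without WT replicate 1), exhaustion and anergy (-0.70 to 0.017, the latter without WT replicate 1), and the cytotoxic granule (-0.10 to 0.18, with -0.10 without STAT3-/-PD-1-/- replicate 2 and -0.05 without WT replicate 2) crossed 0. The causes were not tested. Of 150 named and called genes, 26 kept the call in every setting and 0 reversed. In the simulation, 34% of 2-fold changes were recovered, so smaller changes can be missed with 2 pools a group. Of the 1538 calls in the data, 901 moved at least 1 on the log2 scale, and the others moved less.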

Other observations

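Further lists were counted in the same way. Of 40 redox genes tested, 5 were called higher and 1 lower. Of 81 cytosolic ribosomal protein genes, 1 was called higher, and of 76 mitochondrial ones, 3 were, with medians of 0.25 and 0.31 on the log2 scale. The tRNA synthetases had 3 of 20 members higher, ER chaperones 4 of 16, cytosolic chaperones 3 of 18, the TCA cycle 3 of 24, cholesterol synthesis 2 of 19, MYC-linked ribosome biogenesis 2 of 27, and the proteasome 1 of 37, with no member lower in any of these 7 lists. Their shares can be read against 7.21% of all genes higher. Of 19 genes of fatty acid oxidation, 2 rose and 1 fell. Cd36, a fatty acid translocase, and Fabp5, a fatty acid-binding protein, were the rises, and Cpt1a, which brings long-chain fatty acids into mitochondria, the fall. Cd36 kept its call in all 13 alternative settings, whereas Fabp5 and Cpt1a lost theirs without any 1 of the 4 libraries compared, and Cpt1a also with totals alone. Of 27 survival and death genes, 1 rose and 3 fell, of 11 TGF-β genes 1 rose and 2 fell, and none of 16 S100 and effector genes was called by edgeR, with 6 lower at an unadjusted p under 0.05 and 4 lower in DESeq2. Of 11 NK receptor genes, 2 rose and 2 fell, with a median of -0.69.

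Among called genes of lower abundance, outside the naming rule and chosen after their values were seen, Mamdc2 was at 0.0893 and 0.0844 CPM in WT, 0.325 and 0.756 in STAT3-/-, and 17 and 17.2 in STAT3-/-PD-1-/- T cells. Pltp, a phospholipid transfer protein, was at 8.71 and 8.53 CPM in WT, 1.16 and 1.96 in STAT3-/-, and 0.13 and 0.161 in STAT3-/-PD-1-/- T cells. Mmp9, a gelatinase, was at 13.8 and 21.9 CPM in WT, 2.32 and 6.27 in STAT3-/-, and 0.605 and 0.683 in STAT3-/-PD-1-/- T cells. Epcam, in the list of stellate and bile duct markers, rose from 4.02 and 4.01 CPM in WT to 8.08 and 8.92 in STAT3-/-PD-1-/- T cells, while the other markers of that list summed to less than 1 CPM in each CD4+ library.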
